A study of Rattus norvegicus with 4 samples.

Results

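The genes described here are 10 components of bone morphogenetic protein (BMP) signaling, namely the ligands Bmp2, Bmp4 and Bmp6, the receptors Bmpr1a and Bmpr2, the secreted antagonists Nog and Grem1, and the transcriptional targets Id1, Id2 and Id3. They were taken as a list of symbols and looked up through the RefSeq accession of each transcript on the chip. Of these 10 genes, 8 had a row with a value on all 4 arrays, 1 row per gene, out of 6968 genes that could be named among 18350 measured rows. Bmpr2 and Nog were not matched to a row and were not analysed here. The arrays were one-color NimbleGen chips hybridized with Cy3-labeled cDNA from colon tissue of male Sprague Dawley rats, with 1 array per rat, 2 rats in the control group and 2 rats in the MSCT group. In the study, experimental colitis was induced by instilling 2,4,6-trinitrobenzene sulfonic acid in ethanol into the colon, and rats of the MSCT group then received cultured mesenchymal stem cells that carried green fluorescent protein through a tail vein. The control animals are normal rats in the sample descriptions and rats with inflammatory bowel disease (IBD) in the study's text, and the labels give neither age nor sampling day. The study's text gives an earlier sampling day after transplantation for the arrays in its results than in its methods, so the time that the MSCT values stand for is not settled, and for normal controls the effects of the colitis and of the cells cannot be told apart.

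BMP ligands are secreted proteins that bring type I and type II receptors together on the cell surface. The type I receptor, of which Bmpr1a is the main form in the gut, then phosphorylates Smad1, Smad5 and Smad9, which join Smad4 in the nucleus and switch on target genes such as Id1, Id2 and Id3. In the colon, the signal is strong near the luminal surface, where it favors differentiation, and is kept low at the crypt base by Grem1 and Nog, which stromal cells around the stem cell compartment release to trap the ligands. The Id proteins have a helix-loop-helix domain but no DNA-binding region, and they hold E proteins such as Tcf3, Tcf4 and Tcf12 away from DNA.

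Bmp6 and Bmp4 were the members with the largest differences between the groups, 2.32-fold and 2.09-fold higher in the MSCT group, and Id2 was 1.45-fold higher. The third ligand Bmp2, the antagonist Grem1 and the targets Id1 and Id3 differed by 1.16-fold or less with overlapping arrays, and the receptor Bmpr1a was 1.32-fold lower. Each row was compared by limma on log2 intensity over all 18350 rows, and a screen with the study's thresholds (unadjusted p under 0.05 and more than 2-fold) was applied to the limma p, since the study does not name the test behind its own p. Past the screen and higher in the MSCT group were 2 of the 8 members, against 2.12% of all rows, and 0 members were past it in the lower direction, against 2.51% of all rows. The same screen with the p of a plain test with equal variances called 191 rows higher and 197 lower. These are also the study's counts of upregulated and downregulated genes. In that screen 0 of the 8 members passed, whereas 1.04% of all rows passed as higher and 1.07% as lower. The calls of Bmp4 and Bmp6 thus rest on limma's pooled variance. The list was chosen with earlier results of these arrays known and was not tested as a list. At an unadjusted p under 0.05 there were 3 members higher, against 4.80% of all rows, and 0 lower, against 7.17%. The median difference of the 8 members was 0.21 on the log2 scale, and that of all rows was -0.02. After Benjamini-Hochberg adjustment over all rows, 0 of the 8 passed 0.05 by limma (smallest adjusted p = 0.324, for Bmp6), and 0 passed by the plain test, which gave 1 member, higher in the MSCT group, an unadjusted p under 0.05 (4.40% of all rows). The RNA came from whole colon tissue, where fewer cells of a type and less RNA per cell cannot be told apart.

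**Figure D1:**
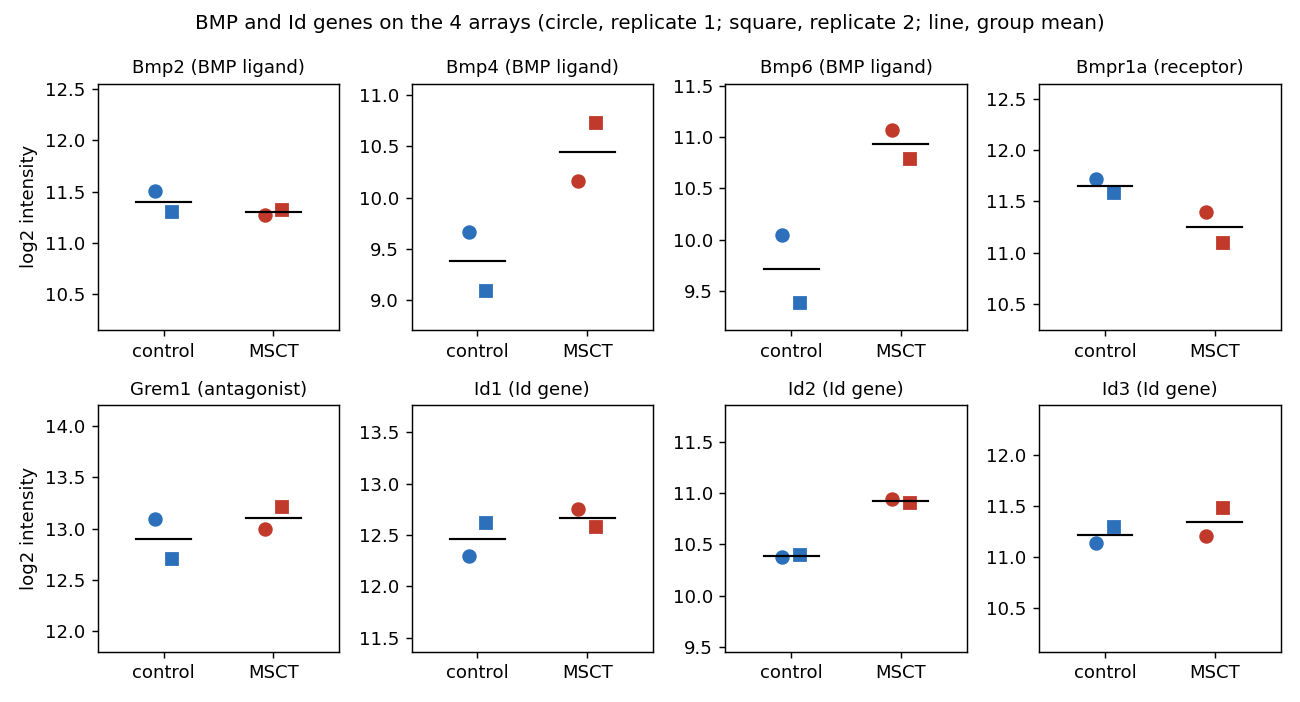
Log2 intensity (vertical axes, all spanning the same range) of the 8 measured genes on the control arrays (blue) and the MSCT arrays (red), with circles for replicate 1, squares for replicate 2 and a line at each group mean. Both MSCT points lie above both control points for Bmp4, Bmp6 and Id2 and below them for Bmpr1a, and the points overlap for the other 4 genes.

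Bmp6, a ligand best known for the control of iron through the liver hormone hepcidin, had an intensity of 1054 in control replicate 1 and 668 in control replicate 2, and of 2149 and 1764 in the MSCT rats. Both MSCT arrays lay above both control arrays, and the nearest arrays of the 2 groups were 0.74 apart on the log2 scale, against 0.66 between the control arrays and 0.28 between the MSCT arrays. The log2 means were 9.71 ± 0.47 (SD, n = 2) in the control group and 10.93 ± 0.20 (SD, n = 2) in the MSCT group. The difference was 1.21 (standard error 0.30, 95% interval 0.41 to 2.02; limma adjusted p = 0.324), with an unadjusted p under 0.05. Without control replicate 2, the control array with the lower Bmp6 value, it was 0.89 and no longer 2-fold, and without control replicate 1 it was 1.54. Without MSCT replicate 1 it was 1.07, and its unadjusted p by limma was over 0.05, as it was with all arrays by the plain test with equal variances. When the variance was allowed to depend on intensity, limma gave Bmp6 an adjusted p of 0.0470, as it did below 0.05 for 387 rows of the table, and over the other settings the adjusted p of Bmp6 ran from 0.0591 to 0.695.

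Bmp4, the BMP ligand that the mesenchyme beneath the colonic epithelium is known to secrete, had an intensity of 813 and 546 in the control rats and of 1143 and 1695 in the MSCT rats. The groups did not overlap, but the replicates of each group were 0.57 apart on the log2 scale, more than the 0.49 between the nearest control and MSCT arrays. The log2 means were 9.38 ± 0.41 (SD, n = 2) and 10.44 ± 0.40 (SD, n = 2), a difference of 1.06 (standard error 0.33, 95% interval 0.20 to 1.93; limma adjusted p = 0.354), with an unadjusted p under 0.05. The difference was 0.78 without control replicate 2 and again 0.78 without MSCT replicate 2, and both times the unadjusted p by limma was over 0.05. The 2-fold limit was thus passed only with the lowest control array and the highest MSCT array in the fit, and the plain test with equal variances gave an unadjusted p over 0.05 with all 4 arrays. Of the 250 bases before the start site of Bmp4 in the RefSeq promoter table (chr15:22101934-22102183 of GRCr8, minus strand), the following run is shown because it is the member with the most matches to CAGAC, the short box that Smad proteins recognize, marked in capitals on either strand (GTCTG on the other).
Bmp4: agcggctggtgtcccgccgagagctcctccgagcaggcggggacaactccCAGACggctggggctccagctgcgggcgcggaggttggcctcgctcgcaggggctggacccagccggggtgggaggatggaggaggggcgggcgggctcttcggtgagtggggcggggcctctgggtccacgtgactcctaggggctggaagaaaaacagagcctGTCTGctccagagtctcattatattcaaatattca
It held 2 matches, at bases 200 to 196 and 35 to 31 before the start, and at least 1 match was found in 42.9% of the 33469 promoters of the table. The share of promoters with 2 matches was not counted. That table held 9 of the 10 listed genes, all but Bmp2, and of these only Bmp4 and Nog had a match to CAGAC.

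Bmp2 lay at 2903 and 2525 in the control rats and at 2480 and 2566 in the MSCT rats (intensity). This ligand, which is made by differentiated epithelial cells as well as by stroma, overlapped between the groups, in contrast to Bmp4 and Bmp6. Its difference was -0.10 on the log2 scale (95% interval -0.62 to 0.41; limma adjusted p = 0.854), and this interval holds neither 2-fold limit. Whether Bmp2 differed from Bmp4 or Bmp6 in its response was not tested.

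The receptor Bmpr1a had an intensity of 3355 and 3069 in the control rats and of 2686 and 2190 in the MSCT rats. Both MSCT arrays lay below both control arrays, the order found in 24.5% of all rows, whereas the opposite order, found in 21.3% of all rows, held for 3 of the 8 members. The log2 difference was -0.40 (standard error 0.21, 95% interval -0.96 to 0.16; limma adjusted p = 0.517). The direction was kept when each array was left out, with differences from -0.55 to -0.26. Among the settings tried, only the robust limma fit with variance depending on intensity gave an unadjusted p under 0.05 (limma adjusted p = 0.324).

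The antagonist Grem1, which binds Bmp2 and Bmp4 and keeps them from their receptors, had an intensity of 8735 and 6692 in the control rats and of 8179 and 9490 in the MSCT rats. Control replicate 1 exceeded MSCT replicate 1, and the arrays overlapped. The difference was 0.20 on the log2 scale (95% interval -0.42 to 0.83; limma adjusted p = 0.747), and it lay between 0.01 without control replicate 2 and 0.40 without control replicate 1.

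**Figure D2:**
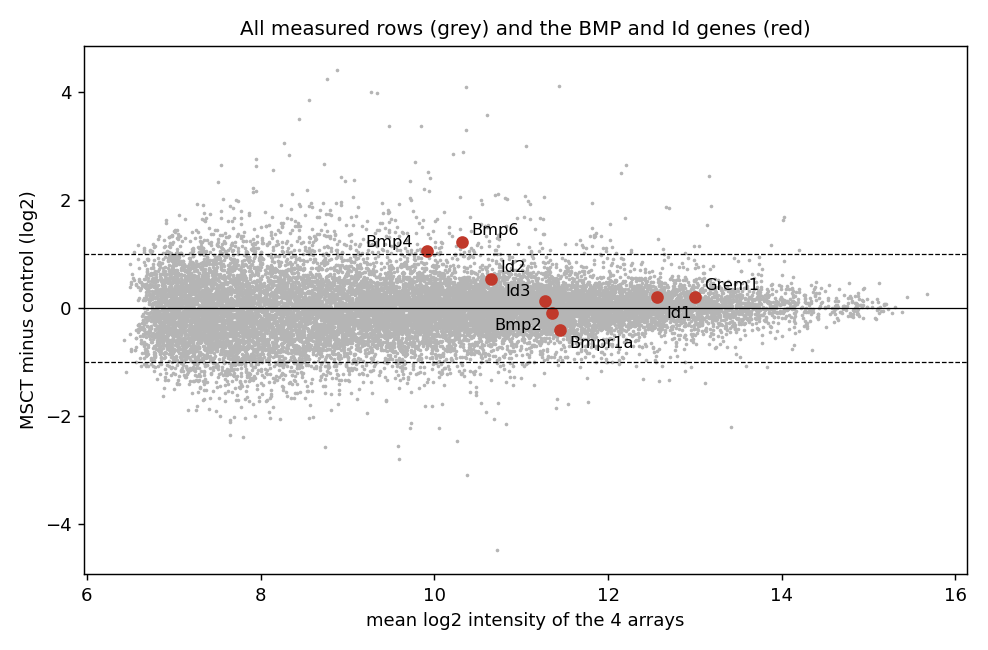
Difference between the group means (vertical axis, log2) against the mean log2 intensity of the 4 arrays (horizontal axis) for the 18350 measured rows (grey) and the 8 BMP and Id genes (red), with dashed lines at the 2-fold limits. Bmp6 and Bmp4 lie above the upper dashed line at 1.21 and 1.06, Id2 lies at 0.54, and the other members lie between -0.40 and 0.21.

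The Id genes are the usual readout of BMP signaling, and their promoters are shown because these genes are the members that Smad proteins are known to act on. The runs are the 250 bases before each start site from the RefSeq promoter table of GRCr8, at chr3:161671314-161671563 (plus strand), chr6:47470996-47471245 (minus strand) and chr5:153656041-153656290 (plus strand). Capitals mark the CCAAT box (CCAAT, or ATTGG on the other strand) and the TATA box (TATAAA, or TTTATA on the other strand).
Id1: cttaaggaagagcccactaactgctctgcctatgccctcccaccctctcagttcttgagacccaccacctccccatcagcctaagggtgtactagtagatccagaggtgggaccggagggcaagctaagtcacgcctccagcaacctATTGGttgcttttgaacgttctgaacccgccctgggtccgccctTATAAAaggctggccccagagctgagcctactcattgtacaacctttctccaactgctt
Id2: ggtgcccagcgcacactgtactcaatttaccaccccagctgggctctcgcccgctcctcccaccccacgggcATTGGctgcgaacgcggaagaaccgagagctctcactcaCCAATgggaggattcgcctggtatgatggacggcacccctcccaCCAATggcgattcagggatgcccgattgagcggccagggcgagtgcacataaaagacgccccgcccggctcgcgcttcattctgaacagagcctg
Id3: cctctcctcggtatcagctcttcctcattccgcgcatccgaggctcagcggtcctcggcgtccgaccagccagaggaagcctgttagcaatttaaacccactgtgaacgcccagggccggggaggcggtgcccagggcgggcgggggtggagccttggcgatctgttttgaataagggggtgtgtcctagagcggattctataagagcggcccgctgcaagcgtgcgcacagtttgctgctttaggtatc
The Id2 run held 3 CCAAT boxes and no TATA box, the Id1 run held 1 of each, and the Id3 run held neither. A CCAAT box was found in 34.0% of all 33469 promoters and a TATA box in 12.9%. No match to CAGAC or to GGCGCC, the GC-rich palindrome bound by BMP-activated Smads and found in 8.7% of the promoters, was present in these 3 windows. Bases farther upstream were not searched.

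Id2, which is known in the gut for its part in innate lymphoid cells as well as in epithelium, had an intensity of 1326 and 1346 in the control rats and of 1968 and 1912 in the MSCT rats. Replicates lay closer than for any other measured member, 0.02 (control) and 0.04 (MSCT) apart on the log2 scale, against a median of 0.31 and 0.24 over all rows. The log2 means were 10.38 ± 0.02 (SD, n = 2) and 10.92 ± 0.03 (SD, n = 2), and the difference was 0.54 (standard error 0.18, 95% interval 0.05 to 1.02; limma adjusted p = 0.386), with an unadjusted p under 0.05. The standard error is larger than these spreads because limma draws the variance of each row toward that of all rows, and Id2 was the member with an unadjusted p under 0.05 by the plain test with equal variances (adjusted p = 0.384 over all rows by that test). With each array left out, the difference stayed between 0.52 and 0.56, but the unadjusted limma p was over 0.05 each time, as it was with the replicate number as a block (limma adjusted p between 0.345 and 0.804 over these 5 fits).

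Id1 had an intensity of 5040 and 6289 in the control rats and of 6927 and 6112 in the MSCT rats. Id3 had an intensity of 2248 and 2514 in the control rats and of 2359 and 2860 in the MSCT rats. For both genes the lower MSCT array fell below the higher control array. The difference of Id1 was 0.21 on the log2 scale (95% interval -0.37 to 0.79; limma adjusted p = 0.726) and that of Id3 was 0.13 (95% interval -0.43 to 0.69; limma adjusted p = 0.831), which was -0.01 without MSCT replicate 2. The interval of each gene holds both 0 and the difference of Id2, and whether the Id genes differed from each other in their response was not tested.

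**Figure D3:**
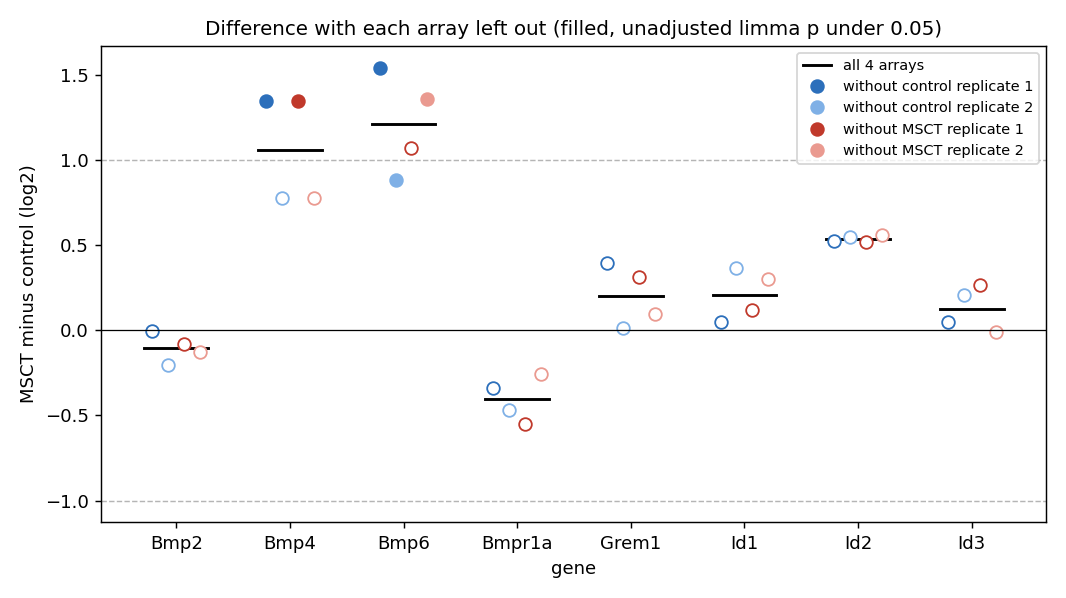
Difference between MSCT and control arrays (vertical axis, log2) for each measured gene with all 4 arrays (black line) and with each array left out (points), filled where the unadjusted limma p was under 0.05, with dashed lines at the 2-fold limits. Bmp4 moves between 0.78 and 1.35 and Bmp6 between 0.89 and 1.54, whereas Id2 stays between 0.52 and 0.56.

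Of 55 other genes of the pathway, listed by role, 24 had a measured row, 8 had rows that were blank on all 4 arrays and 23 were not matched by name. The median difference of the 24 was -0.08 on the log2 scale, and 11 genes had a higher and 13 a lower mean in MSCT rats. At an unadjusted limma p under 0.05, 3 of the 24 were higher (4.80% of all rows) and 1 was lower (7.17% of all rows), and after adjustment over all rows 0 passed by limma (smallest adjusted p = 0.298). By the plain test with equal variances 1 of the 24 had an unadjusted p under 0.05, as did 1772 of all 18350 rows, and 0 of the 24 passed after adjustment. Past the screen were 0 of the 24 in the higher direction (2.12% of all rows) and 1 in the lower direction (2.51% of all rows), Sostdc1, which was no longer past it with equal array medians or by the plain test.

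Among the antagonists and modulators, the genes past an unadjusted p of 0.05 went in both directions. Sostdc1, which encodes a secreted antagonist of BMP ligands that also acts on Wnt signaling, had a log2 intensity of 9.56 and 9.68 in the control rats and of 8.35 and 8.87 in the MSCT rats. The difference was -1.01 (standard error 0.26; limma adjusted p = 0.324). The follistatin genes Fst and Fstl3, whose products bind activins and some BMPs, were higher in the MSCT group. Fst lay at 7.03 and 7.76 in the control rats and at 8.30 and 8.38 in the MSCT rats (log2). Its difference was 0.94 (standard error 0.30; limma adjusted p = 0.370). Both Fst control values lay under the lower quartile of all rows on their arrays, 8.19 and 8.28. Fstl3 lay at 8.60 and 8.86 against 9.41 and 9.86, with a difference of 0.91 (standard error 0.25; limma adjusted p = 0.338). In none of these 3 genes did the groups overlap. Of all rows, 21.3% had both MSCT arrays above and 24.5% had both below the control arrays. The 3 genes were named for their p on the same arrays, so this order is no separate result. The other 4 measured modulators had adjusted limma p-values of 0.711 or more, among them Nbl1 at -0.20, in which the groups did not overlap either.

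Among 6 measured receptors and coreceptors, Eng was higher in the MSCT group. Eng encodes endoglin, a coreceptor of endothelial cells for ligands of the BMP and TGF-beta family, and lay at 7.76 and 7.70 in the control rats and at 8.52 and 8.65 in the MSCT rats (log2). The difference was 0.85 (standard error 0.19; limma adjusted p = 0.298), the smallest adjusted p of the 24 genes. Both Eng control values lay under the lower quartile of all rows on their arrays, 8.19 and 8.28 (log2). The coreceptor Hjv, which acts with Bmp6 in the control of iron and was chosen after its values were seen, had an intensity of 73.9 and 128 in the control rats and of 165 and 167 in the MSCT rats without overlap, and its log2 difference of 0.77 had an unadjusted p over 0.05 (limma adjusted p = 0.448). On the log2 scale all Hjv values, 6.21 to 7.38, lay under the lower quartiles of the arrays, 8.11 to 8.28. Of the signaling receptors, Acvr1, Acvrl1, Acvr2a and Acvr2b had differences between -0.40 and 0.33 with overlapping arrays and adjusted limma p-values of 0.689 or more.

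The signal transducers Smad1, Smad4 and Smad5 differed by 0.13, -0.19 and 0.08 on the log2 scale, and the arrays overlapped for all 3. Smad7, an inhibitory Smad that BMP and TGF-beta signals induce, was chosen after its values were seen, and lay at 12.33 and 12.32 in the control rats against 11.94 and 11.70 in the MSCT rats (log2). The groups did not overlap, but the difference of -0.50 (standard error 0.20; limma adjusted p = 0.432) had an unadjusted p over 0.05. Id4, the remaining Id gene, differed by 0.12, and the other targets Msx1 and Msx2 by -0.41 and -0.10 with replicates up to 1.23 apart. The E proteins that Id proteins bind differed by -0.23 (Tcf12), -0.13 (Tcf4) and 0.10 (Tcf3), and the second row of Tcf3 by -0.05. The ligand Bmp3, an atypical BMP that dampens signaling, differed by 0.15.

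**Figure D4:**
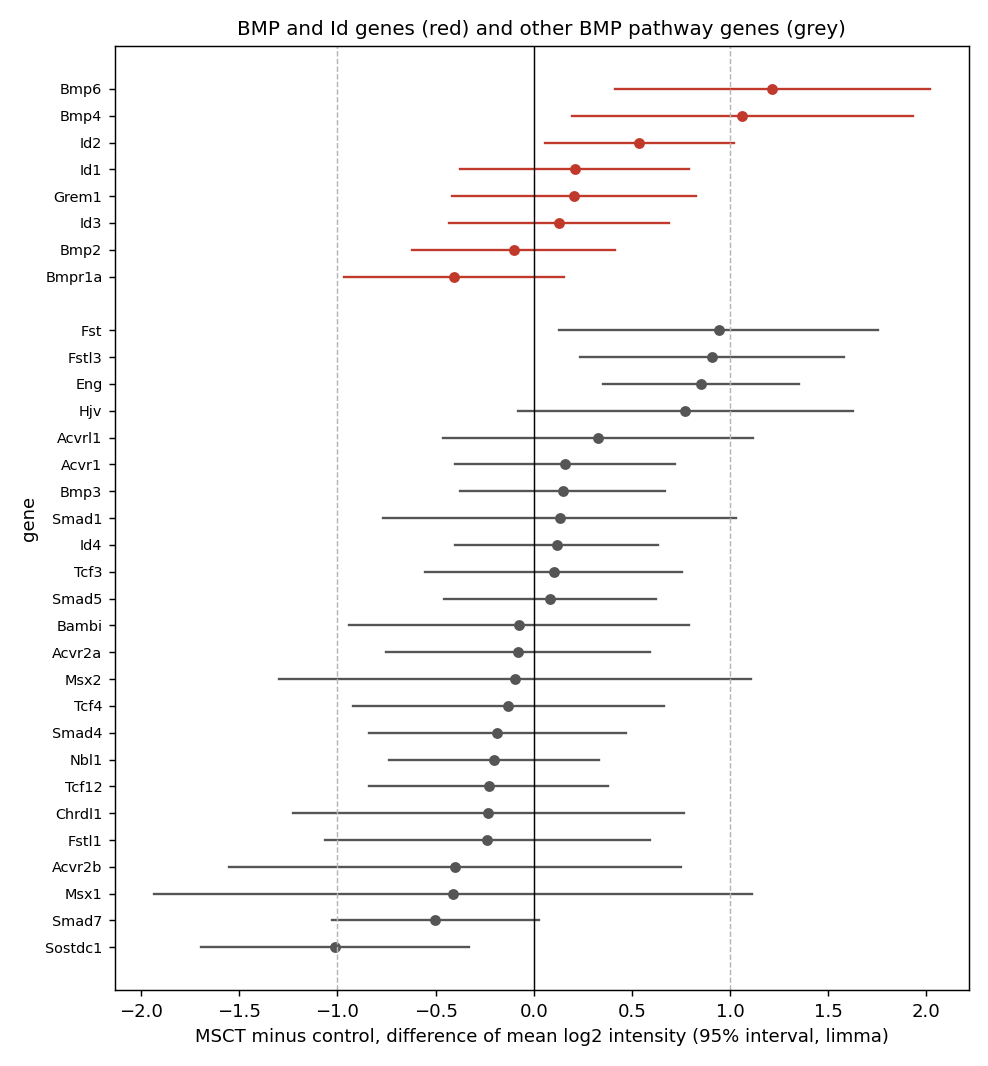
Difference between MSCT and control arrays (horizontal axis, log2) with its 95% interval from limma for the 8 measured BMP and Id genes (red) and 24 other BMP pathway genes (grey), with dashed lines at the 2-fold limits. The intervals of Bmp6, Bmp4, Id2, Fst, Fstl3 and Eng lie above 0, that of Sostdc1 lies below 0, and all others include 0.

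Markers of the cell types in the tissue are given beside these values. In the list of enteric neurons and glia, 5 of 7 genes were lower in the MSCT group, 3 of them at an unadjusted limma p under 0.05 (Elavl4 by -1.06, Ret by -0.86 and Uchl1 by -0.54 on the log2 scale), and the summed intensity was 9592 and 9370 in the control rats against 7017 and 7035 in the MSCT rats. Of 6 measured fibroblast genes 5 were higher, 2 of them at an unadjusted limma p under 0.05 (Vim by 0.68 and Col1a2 by 0.62), with sums of 55472 and 39717 against 61312 and 65838, and of 40484 and 27994 against 41362 and 45157 without Col1a2. Control replicate 2, the lowest array for Bmp4, Bmp6 and Grem1, also had the lowest sums of fibroblast, smooth muscle, endothelial and leukocyte genes. Its sums of epithelial genes and of neuron and glia genes were not the lowest. Of 4 leukocyte genes, only the macrophage gene Cd68 had an unadjusted p under 0.05 (difference 1.29; limma adjusted p = 0.260), and the sums were 1744 and 1697 against 3083 and 3737. Cd68 carried these sums, since the other 3 genes, among them Cd4, added up to 721 and 550 against 694 and 794, which overlap. Of 4 endothelial genes, among which Pecam1 and Cldn5 were the brightest, only Eng did so, with overlapping sums of 2503 and 1829 against 2379 and 3222.

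Of 7 epithelial genes 6 were higher, none at a limma p under 0.05, and their sums were 113411 and 118828 in the control rats against 132401 and 129348 in the MSCT rats. The brightest of them were Lgals4 and Krt8, which differed by 0.24 and 0.12 on the log2 scale, and the hindgut regulator Cdx2 and the surface keratin Krt20, chosen after their values were seen, differed by 0.48 and 0.39. The 5 smooth muscle genes, of which Acta2 and Tagln were the brightest, had a median difference of 0.02, and their sums overlapped, at 171485 and 141287 against 159204 and 154976. No measured marker was at 0, no flag of signal over background was used here, and the colon markers Vil1, Cdx1, Car1 and Muc2 were not matched to a row. The part of these cell types in the differences of Bmp4, Bmp6, Id2, Eng and the other genes was not tested.

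Likeness over the 4 arrays was measured among 6967 other named genes as the distance between log2 profiles, each centred on its own mean, and is a description over 4 arrays of 2 groups. Closest to Bmp6 were Arid5a (distance 0.17), Epsti1 (0.21) and Ms4a6bl1 (0.21), and 1 gene lay within a distance of 0.2. Closest to Id2 were Pon3 (0.03), Thbs1 (0.05) and Mfge8 (0.05), but 154 genes lay within 0.2. For Id1 the closest were Ppp1r1b (0.01), Satb1 (0.02) and Gcsh (0.03) with 296 genes within 0.2, and for Id3 they were Tasp1 (0.02), Sirt6 (0.03) and Chm (0.03) with 430, so that many genes shared each of these profiles.

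Array medians of intensity ran from 848 to 893. Pearson's r of log2 intensity across rows, which do not count as replicates, was 0.953 within the control group and 0.964 within the MSCT group. Between the groups r was 0.959 for replicates 2 of both groups and 0.934 to 0.943 for the other pairs of arrays. With 2 rats a group, the smallest two-sided p that an exact permutation test allows is 0.33, so no member could pass such a test. The limma p-values rest on a variance shared over rows, and the few arrays limit how precisely any difference is known.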

How the data were processed

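Colon RNA of 2 control and 2 MSCT rats was hybridized to one-color NimbleGen arrays. The authors scanned the chips with an Axon GenePix scanner, analysed them in NimbleScan and deposited a linear intensity for each RefSeq transcript and array. The submitters' processing notes name RMA, and scaling and the rule for blank rows are otherwise not given in the sources used here. Of 26420 rows, 18350 had values on all 4 arrays. Intensities were converted to log2 without pseudocount, scaling or filter, and compared with limma 3.58.1 (lmFit and eBayes) in R 4.3.3, with Benjamini-Hochberg adjustment over all rows. Gene names came from RefSeq accessions in the GRCr8 gene table (38.5% of the measured rows), and the row with the highest mean was used where a gene had several. Groups came from the sample titles. The naming rule took all members, other pathway genes with an unadjusted p under 0.05, the brightest of each role, the nearest profiles, and markers that were bright or under 0.05; other pathway genes and markers are named outside the rule and after their values were seen. The members and lists were chosen with earlier results of these data known. The fit was tested on simulated data. Python 3.11.15, pandas 2.3.3 and matplotlib 3.10.9 made names and figures.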

Additional observations from a re-analysis of the deposited data

How the results depend on the processing

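Of 104 differences of the 8 members recomputed under other settings, 103 kept their direction, and 1 reversed: Id3 was -0.011 without MSCT replicate 2 and up to 0.27 without the other arrays in turn (the cause was not tested). The 2 members past the screen were 0 by the plain test with equal variances and 0 to 2 with each array left out, and the 3 with an unadjusted p under 0.05 were 1 and 1 to 2. Of other pathway genes, 1 was past the screen, against 0 by the plain test, 0 with equal array medians, 0 without the lower 50% of rows, 4 with a fold limit of 1.5 and 1 to 3 with each array left out. The 4 with an unadjusted p under 0.05 were 1 by the plain test, 1 without the lower 50% of rows, where 14 of the 24 genes remained in the table, and 1 to 5 with each array left out. The row with the lowest mean for a gene with several (Tcf3) left these counts as they were. The labels do not say that equal replicate numbers mark paired animals, and the correlation of their deviations from the group means was 0.23. With the replicate block, 2 members and 1 other gene were past the screen, and 2 and 4 had an unadjusted p under 0.05. With 1 array left in a group, its spread is assumed to be that of the other group.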
